A study of Rattus norvegicus with 6 samples.

Results

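The genes described here are those of the unfolded protein response and the amino acid stress response, in neonatal rat ventricular myocytes made to express Tbx18. They were chosen by symbol, as 35 named genes: 15 genes of the ATF4 type (Atf4 and genes known as its targets or partners), 13 chaperones and folding enzymes of the endoplasmic reticulum (ER), 3 genes of ER-associated degradation, and 4 stress sensors and transducers. Of the 35 symbols, 34 were among the 17089 genes of the deposited data. Edem1, a lectin of ER-associated degradation, was not analysed here. The study compared Tbx18-induced pacemaker-like cells with ventricular myocytes that had received a control virus.

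There were 3 libraries in each of 2 groups. The data labels of every library, in both groups, carry the words unpace and Control. In the Tbx18 group the cells were given Ad-Tbx18-IRES-GFP, an adenovirus with Tbx18, which encodes a T-box factor that acts in the forming sinus node, and with GFP translated from the same transcript. In the GFP group they were given Ad-GFP, so both groups made GFP. The myocytes were taken from Sprague Dawley rats on postnatal days 1 to 3 and kept on fibronectin in M199-based medium, whose serum was 10% for 2 days and 2% from day 3. Virus was added on the day the cells were isolated, and RNA was taken on day 4. The labels do not name the promoter that drove the transgene or the number of animals behind a culture. Nor do they say whether replicates came from separate isolations of cells; the p-values then measure only how these libraries spread, and that spread may be technical. The Tbx18 gene itself had 6004, 6236 and 5937 normalized counts in the Tbx18 libraries, against 312, 268 and 296 in the GFP libraries, which matched the label of every library.

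When unfolded proteins build up in the ER, 3 membrane sensors respond: PERK (gene Eif2ak3) phosphorylates the initiation factor eIF2, IRE1 (Ern1) splices the mRNA of Xbp1, and ATF6 is cut in the Golgi to release a transcription factor. Phosphorylated eIF2 slows translation in general but favours that of Atf4, and the same step can be reached through other kinases by amino acid shortage, double-stranded RNA or lack of heme. ATF4 then drives genes of amino acid uptake, serine and asparagine synthesis and mitochondrial one-carbon metabolism, whereas ATF6 and spliced XBP1 drive chaperones and degradation genes. Secretory cells such as matrix-producing fibroblasts keep a large ER, and calreticulin, an ER chaperone that also binds calcium, is needed in the developing heart. The counts measure mRNA per gene. They show neither eIF2 phosphorylation, nor Xbp1 splicing, nor ATF6 cleavage, nor ATF4 protein.

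Promoter sequence was searched for the known elements of both arms. Because the elements and the genes are both known from the same responses, a match before a member is a description and not an independent test. The promoter table of RefSeq (build GRCr8) held 30 of the 35 symbols, and the 250 bases before each gene's start were searched on both strands. The ER stress response element, CCAAT and CCACG with 9 bases between them, was present in 6 of 10 chaperone and folding promoters (Calr, Canx, Creld2, Dnajc3, Hsp90b1 and Hspa5) and in that of Xbp1, 1 of 2 sensor and transducer promoters. It was present in none of 15 ATF4-type promoters and in 0.0765% of all 27457 promoters, 21 genes, of which these were 7. The second form of that element, ATTGG and CCACG with 1 base between them, lay before Hyou1 and Herpud1 and before 0.051% of all genes. Hyou1 had 2 promoter entries, and the second held 0 of the searched motifs. A gene was counted when any of its entries had a match. The composite site of ATF4 and C/EBP proteins, TGATGNAAN, lay before 3 of 15 ATF4-type genes (Chac1, Nupr1 and Trib3), before Herpud1 and before 3.56% of all genes; its strict form TGATGCAAT lay before Nupr1 and 0.186% of all genes. The shorter element TGACGTG, which resembles the cAMP response element, lay before Hspa5, Hyou1 and 1.72% of all genes. Among the 8356 tested genes with a promoter entry, the shares were 0.18% for the ER stress response element and 0.108% for its second form. They were 1.7% for the composite site, 0.0957% for its strict form and 2.33% for TGACGTG. Nupr1 was not among the tested genes. In the Hyou1 promoter TGACGTG overlaps a site of the second ER stress form. The strict composite site is by construction a case of the composite one. A match is a string of letters in this window and not a shown binding site, and a missing match says only that these letters are not in this window.

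The sites of the ER stress response element are shown because the same element stands before genes that rose (Calr, Creld2, Dnajc3), genes that fell (Hspa5, Canx) and genes that were not called (Hsp90b1, Xbp1). Of these calls, those of Calr and Creld2 held under all 17 alternatives in processing. The call of Canx held under 15, that of Dnajc3 under 9 and that of Hspa5 under 8. Over all 15 tested genes with the element, these 7 included, 4 rose, 4 fell and 7 were not called. Of all genes tested, 22.5% rose and 23.5% fell. Each line is in the direction of the gene, with the element in capitals and up to 15 bases on each side; where the capitals begin with CGTGG the element reads on the other strand.
Calr, chr19:40213120-40213168, plus strand: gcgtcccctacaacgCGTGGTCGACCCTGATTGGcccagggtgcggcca
Creld2, chr7:121789224-121789272, plus strand: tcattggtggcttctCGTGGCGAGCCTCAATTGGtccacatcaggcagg
Dnajc3, chr15:102432519-102432567, plus strand: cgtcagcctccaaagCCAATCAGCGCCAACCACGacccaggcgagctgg
Hsp90b1, chr7:23012436-23012484, minus strand: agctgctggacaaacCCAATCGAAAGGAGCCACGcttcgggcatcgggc
Hsp90b1, chr7:23012332-23012380, minus strand: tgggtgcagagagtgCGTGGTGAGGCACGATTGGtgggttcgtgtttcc
Xbp1, chr14:84604543-84604591, plus strand: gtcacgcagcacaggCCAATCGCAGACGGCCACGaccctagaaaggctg
Canx, chr10:35158054-35158102, minus strand: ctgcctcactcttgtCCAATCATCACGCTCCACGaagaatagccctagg
Hspa5, chr3:38452958-38453006, plus strand: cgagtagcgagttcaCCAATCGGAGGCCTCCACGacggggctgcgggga

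The composite sites of the ATF4 type are shown in the same way, with the site in capitals. All 4 read on the other strand, so TGATG appears as CATCA at the right end, and Nupr1 has the strict letters.
Chac1, chr3:126795948-126795986, plus strand: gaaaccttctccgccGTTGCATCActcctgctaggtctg
Trib3, chr3:161275534-161275570, minus strand: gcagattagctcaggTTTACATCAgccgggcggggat
Nupr1, chr1:190645934-190645972, minus strand: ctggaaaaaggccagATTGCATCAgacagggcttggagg
Herpud1, chr19:10614869-10614907, minus strand: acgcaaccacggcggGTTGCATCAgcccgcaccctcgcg

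For Hspa5 and Calr, which hold the same element at different distances from the start, the whole 250 bases are given, with every searched motif in capitals. The element ended 25 bases before the start of Hspa5 and 214 bases before that of Calr.
Hspa5, chr3:38452766-38453015, plus strand: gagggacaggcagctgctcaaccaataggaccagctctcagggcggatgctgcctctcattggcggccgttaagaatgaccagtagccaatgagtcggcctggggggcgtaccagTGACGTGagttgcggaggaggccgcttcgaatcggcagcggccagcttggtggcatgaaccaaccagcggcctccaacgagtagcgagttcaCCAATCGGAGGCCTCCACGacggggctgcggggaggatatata
Calr, chr19:40213117-40213366, plus strand: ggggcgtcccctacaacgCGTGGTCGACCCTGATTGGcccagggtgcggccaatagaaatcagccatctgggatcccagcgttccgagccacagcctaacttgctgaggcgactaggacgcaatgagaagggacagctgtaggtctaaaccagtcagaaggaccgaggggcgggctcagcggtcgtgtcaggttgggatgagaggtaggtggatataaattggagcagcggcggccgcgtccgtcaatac

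**Figure D1:**
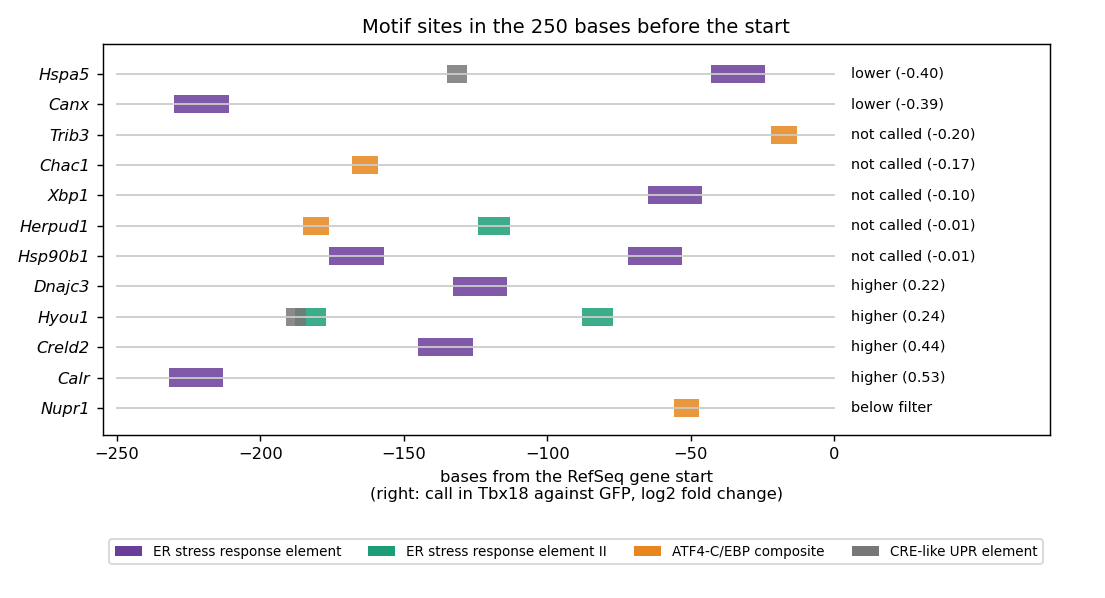
Positions of the motif sites in the 250 bases before the RefSeq start of each gene that holds one (x axis, bases from the start; coloured bars, sites by motif), ordered by log2 fold change with the call at the right. Only members are drawn. Members with an ER stress response element appear among the lower (Hspa5, Canx), the uncalled (Xbp1, Hsp90b1) and the higher (Dnajc3, Creld2, Calr) genes.

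Of the 34 genes, 33 passed the filter of a mean of at least 10 normalized counts. Among these, 7 were called higher and 11 lower in Tbx18 at a limma adjusted p under 0.05, and 15 were not called. Of all 11230 genes tested, 46.0% were called, 22.5% higher and 23.5% lower, so a call by itself was common here. The 11 lower genes were 33.3% of the 33 and the 7 higher genes 21.2%. For 19 of the 33 genes the 2 groups had no overlapping values, with 8 higher and 11 lower in Tbx18; among all genes tested this held for 57.2%, with 28.6% higher and 28.6% lower. Only Asns and Mthfd2 were called with a change of at least 2-fold, both lower. The split depends on how libraries are scaled to each other: with libraries scaled to equal recovered reads, which moved the median over all genes to 0.27 on the log2 scale, 15 members were higher and 5 lower (4793 and 1351 of all genes); with upper-quartile scaling, where that median was 0.10, 9 were higher and 8 lower (3258 and 2058 of all genes); and with quantile normalization 11 were higher and 9 lower (2527 and 2577 of all genes).

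The ATF4-type genes leaned lower. Of 14 tested, 8 fell, 1 rose and 5 were not called, with a median log2 fold change of -0.43, against 0.01 for all genes tested. Of all genes tested, 23.5% fell and 22.5% rose. The chaperone and folding genes moved both ways, with 5 higher, 3 lower and 5 not called of 13 tested and a median of 0.17. Under equal recovered reads 5 ATF4-type genes fell and 3 rose, and 9 chaperone and folding genes rose and 0 fell; with quantile normalization the counts were 7 and 1, and 8 and 1. The medians of both groups kept their signs under all 17 alternatives, being -0.16 and 0.43 with equal recovered reads. Leaving out any 1 of the Tbx18 libraries, or GFP replicate 3, left 3 members called higher, all of them chaperone and folding genes. The higher calls over all genes were also fewer in those fits, at 1891, 1960 and 1906 without Tbx18 replicates 1, 2 and 3 and 2316 without GFP replicate 3, against 2525 with all libraries. When Tbx18 replicate 3 was left out, 7 members were called lower, with 1 of them a chaperone, and 2134 of all genes were lower, against 2639 with all libraries.

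**Figure D2:**
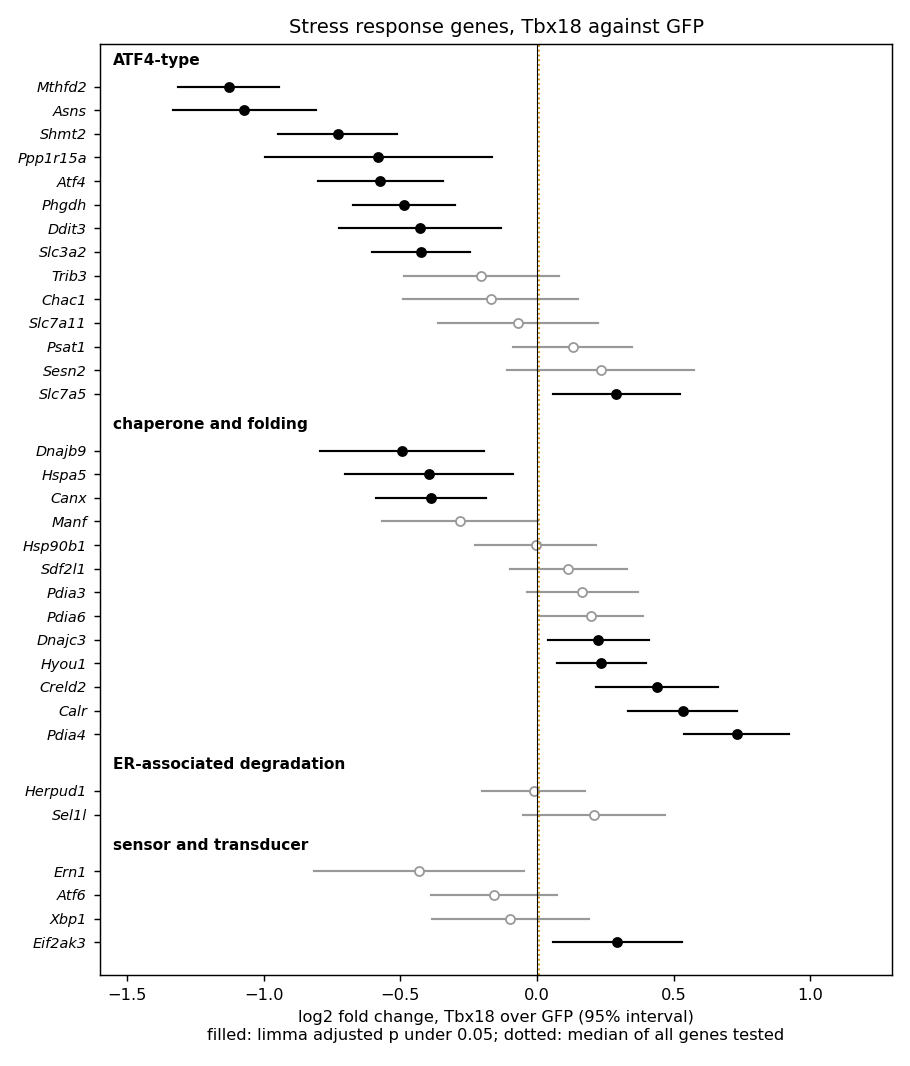
Log2 fold change of each tested gene (x axis, Tbx18 over GFP on log2 of the normalized count plus 1) with its 95% interval, grouped by role and ordered by value; filled points passed the test. ATF4-type genes reach from -1.13 for Mthfd2 to 0.29 for Slc7a5, and chaperone and folding genes from -0.50 for Dnajb9 to 0.73 for Pdia4.

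Many markers of cell types also differed between the Tbx18 and GFP libraries. Of all genes tested, 22.5% were higher in Tbx18 and 23.5% lower. Of 10 fibroblast markers 9 rose, and their summed level was 605555 to 712004 normalized counts in Tbx18 libraries, against 298565 to 361636 in GFP libraries. Of 9 tested cardiomyocyte markers 7 fell, with sums of 563368 to 582315 in Tbx18 and 1309310 to 1417140 in GFP. Smooth muscle and pericyte markers (4 of 7 higher, 1 lower) summed to 119769 to 131232 in Tbx18 and 78016 to 115342 in GFP, endothelial markers (5 of 8 higher, 1 lower) to 2259 to 2437 in Tbx18 and 1575 to 2536 in GFP, and macrophage and leukocyte markers (2 of 8 higher) to 1265 to 1768 in Tbx18 and 1052 to 1949 in GFP. No marker measured was at 0 in every library. In bulk RNA, fewer cells of a type and less RNA per cell cannot be told apart, and the part of these markers in the changes of the stress genes was not tested. The libraries held 17074483 to 19800300 recovered reads, and the median SD of the log2 values was 0.10 within Tbx18 and 0.17 within GFP.

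Atf4, the transcription factor of the amino acid response, had 8164, 8554 and 7000.1 normalized counts in the Tbx18 libraries, against 12137, 12374 and 10729.8 in the GFP libraries. All 3 Tbx18 libraries lay below all GFP libraries, by 1.49-fold on the means (log2 fold change -0.57, standard error 0.10, limma adjusted p = 0.00146). The call held under every alternative, with adjusted p up to 0.0375. Because ATF4 is made mainly by control of translation, its mRNA is one input to its activity among several.

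The 3 lowest log2 fold changes among the 33 genes were those of an enzyme of asparagine synthesis and 2 of mitochondrial one-carbon metabolism. Asns, which makes asparagine from aspartate and glutamine, had 3805, 3901 and 3537 normalized counts in the Tbx18 libraries, against 7101, 9517 and 7203 in the GFP libraries. The Tbx18 libraries lay close together and under every GFP library, among which replicate 2 stood highest (log2 fold change -1.07, standard error 0.12, limma adjusted p = 9.98e-05). Mthfd2, the mitochondrial methylenetetrahydrofolate dehydrogenase, had 3278, 3132 and 2877 normalized counts in the Tbx18 libraries, against 6632, 7116 and 6541 in the GFP libraries. Its groups were far apart and each was tight, a fall of 2.18-fold (log2 fold change -1.13, standard error 0.08, limma adjusted p = 1.31e-05); it ranked 342 from the lowest log2 fold change of the 11230 genes tested. Shmt2, the mitochondrial enzyme that passes the serine carbon to folate, had 4451, 4744 and 4497 normalized counts in the Tbx18 libraries, against 6674, 7719.8 and 8412 in the GFP libraries. It fell 1.67-fold without overlap (log2 fold change -0.73, standard error 0.10, limma adjusted p = 0.000284). These 3 calls held under every alternative.

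Of 2 enzymes of serine synthesis, Phgdh fell and Psat1 was not called. Phgdh, which catalyses the entry step from glycolysis, had 4344, 4207 and 3952 normalized counts in the Tbx18 libraries, against 5457, 6274 and 5804 in the GFP libraries, and fell 1.40-fold (log2 fold change -0.49, standard error 0.08, limma adjusted p = 0.00123); the call held under every alternative, with log2 fold changes from -0.53 to -0.22. Psat1, the aminotransferase of the next step, had 1876, 2127 and 2038 normalized counts in the Tbx18 libraries, against 2062, 1802 and 1672 in the GFP libraries. Its groups overlapped, and its log2 fold change of 0.13 had a 95% interval of -0.09 to 0.35 (limma adjusted p = 0.303); with equal recovered reads it was called higher (adjusted p = 0.0114, range over the alternatives 0.0114 to 0.652). Within each library, where scaling plays no part, Psat1 over Phgdh was 0.432, 0.506 and 0.516 in Tbx18 and 0.378, 0.287 and 0.288 in GFP.

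The 2 subunits of the large neutral amino acid transporter were called in opposite directions. Slc3a2, the heavy chain that several transporters share, had 5027, 5256 and 4996 normalized counts in the Tbx18 libraries, against 6983, 7175 and 6358 in the GFP libraries. It fell without overlap (log2 fold change -0.42, standard error 0.08, limma adjusted p = 0.00211), a call lost with equal recovered reads and with quantile normalization (adjusted p up to 0.108). Slc7a5, the light chain that carries leucine and other large amino acids, had 4142, 4236 and 4551 normalized counts in the Tbx18 libraries, against 4087, 3375 and 3165 in the GFP libraries. It was the ATF4-type gene called higher (log2 fold change 0.29, standard error 0.10, limma adjusted p = 0.0434); its lowest Tbx18 value stood just above its highest GFP value, and the call was lost without any 1 of the Tbx18 libraries, without GFP replicate 2 and without GFP replicate 3 (adjusted p up to 0.143). Slc7a5 over Slc3a2 was 0.824, 0.806 and 0.911 in the Tbx18 libraries, against 0.585, 0.470 and 0.498 in the GFP libraries. Slc7a11, the light chain of the cystine and glutamate exchanger, had 290.0, 343 and 379 normalized counts in the Tbx18 libraries, against 338, 387 and 334 in the GFP libraries, with overlapping groups (log2 fold change -0.07, standard error 0.13, limma adjusted p = 0.688).

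Ddit3 and Ppp1r15a, which act late in the response, were called lower with less stable calls. Ddit3, which encodes the transcription factor CHOP, had 726, 789 and 744 normalized counts in the Tbx18 libraries, against 928, 1265 and 889 in the GFP libraries. It fell without overlap (log2 fold change -0.43, standard error 0.13, limma adjusted p = 0.0238), and was not called with upper-quartile scaling, with equal recovered reads, or when Tbx18 replicate 1 or 3 was left out (adjusted p up to 0.273). Ppp1r15a, which encodes GADD34, the subunit that directs a phosphatase to eIF2, had 1022, 1059 and 1003 normalized counts in the Tbx18 libraries, against 1113, 1566 and 2086 in the GFP libraries. The spread lay in the GFP libraries, of which replicate 1 was close to the Tbx18 values (log2 fold change -0.58, standard error 0.19, limma adjusted p = 0.0280); the call was lost with upper-quartile scaling, with equal recovered reads and without any 1 library other than GFP replicate 1, without which the log2 fold change was -0.81 (adjusted p over the alternatives 0.000236 to 0.157).

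Trib3, a pseudokinase that restrains ATF4 signalling, had 865, 1017 and 991 normalized counts in the Tbx18 libraries, against 1189, 1234 and 910.2 in the GFP libraries, and GFP replicate 3 lay among the Tbx18 values. Its log2 fold change was -0.20 (limma adjusted p = 0.213) and it was called lower when that library was left out (adjusted p = 0.0274, range over the alternatives 0.0274 to 0.715). Chac1, which breaks down glutathione, had 672, 698 and 699.6 normalized counts in the Tbx18 libraries, against 967, 769 and 627 in the GFP libraries, with overlapping groups (log2 fold change -0.17, standard error 0.14, limma adjusted p = 0.357). Sesn2, a leucine-binding inhibitor of mTORC1 signalling, had 1036, 1033 and 1135 normalized counts in the Tbx18 libraries, against 1161, 893 and 721 in the GFP libraries. The Tbx18 libraries fell within the GFP range (log2 fold change 0.23, standard error 0.15, limma adjusted p = 0.238), and without GFP replicate 1, which was highest, Sesn2 was called higher with a log2 fold change of 0.41, as it was with equal recovered reads at 0.50 (adjusted p over the alternatives 0.00958 to 0.692). Nupr1, a small stress-induced nuclear protein, was read with 1, 0 and 2 reads in the Tbx18 libraries and 0 in each GFP library, under the floor of 3 reads, so it was not tested and no fold is given.

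**Figure D3:**
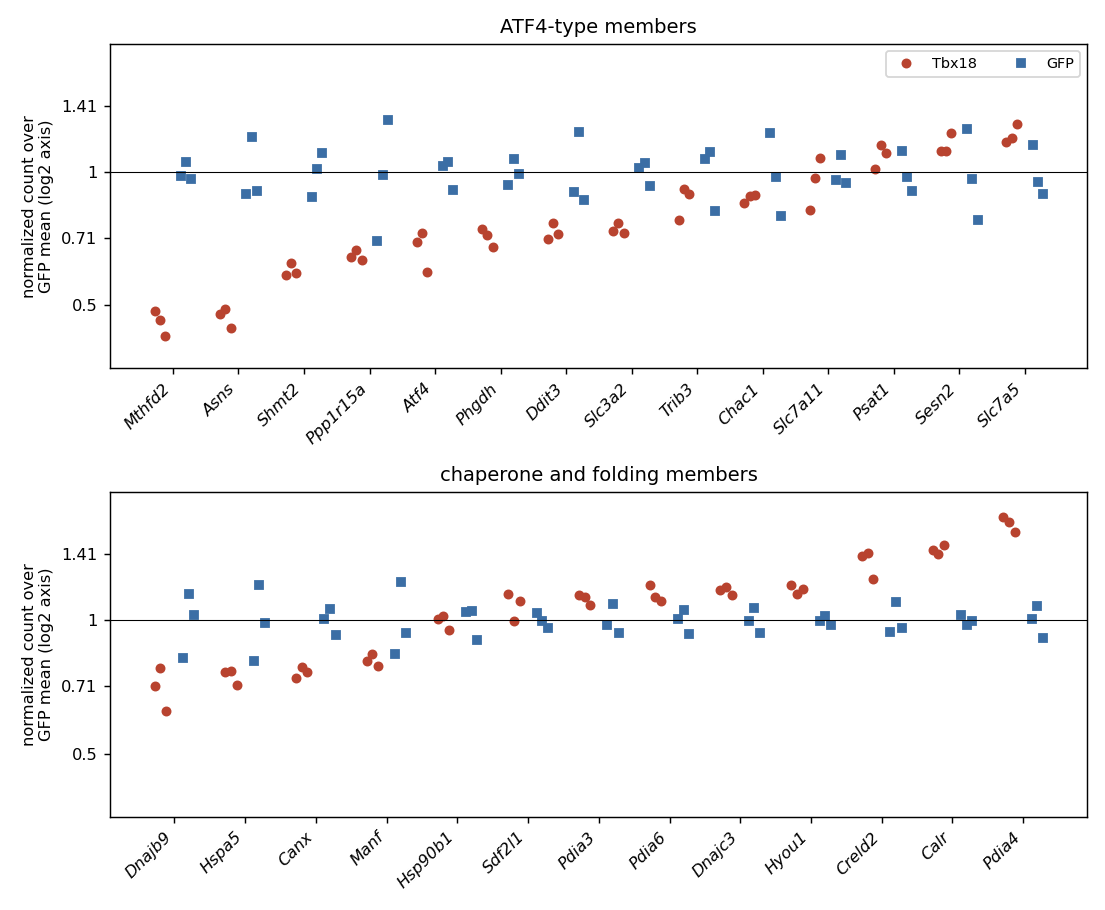
Normalized count of each gene in each library divided by its mean over the 3 GFP libraries (y axis, log2 scale; circles Tbx18, squares GFP), for ATF4-type genes above and chaperone and folding genes below, ordered by log2 fold change. For Mthfd2 and Asns the Tbx18 libraries sit below all GFP libraries, for Pdia4 and Calr above all of them, and the GFP libraries of Hspa5, Manf and Ppp1r15a are spread widely.

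Among the chaperones and folding enzymes, Hspa5 was called lower and Pdia4, Calr and Creld2 were called higher. Hspa5 encodes BiP, the Hsp70 of the ER, which binds unfolded chains and holds the sensors inactive. It had 23935, 24075 and 22362 normalized counts in the Tbx18 libraries, against 25359.5, 37516 and 30912 in the GFP libraries. The Tbx18 libraries lay close together, while the GFP libraries were spread widely, with replicate 1 just above the Tbx18 values (log2 fold change -0.40, standard error 0.14, limma adjusted p = 0.0384). The call held under 8 of the 17 alternatives, fewer than for any other called member: it was lost with upper-quartile scaling, equal recovered reads, no filter and without any 1 library other than GFP replicate 1, and with quantile normalization the log2 fold change was 0.01 (adjusted p over the alternatives 0.00191 to 0.934).

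Pdia4, a protein disulfide isomerase, had 6884, 6710.2 and 6369 normalized counts in the Tbx18 libraries, against 4054, 4336 and 3669 in the GFP libraries. It rose 1.66-fold with a wide gap between the groups (log2 fold change 0.73, standard error 0.09, limma adjusted p = 0.000153). Calr, calreticulin, a soluble lectin chaperone that also stores calcium, had 36138, 35313 and 37113 normalized counts in the Tbx18 libraries, against 25698, 24457 and 24921 in the GFP libraries. It rose 1.45-fold, again with no overlap (log2 fold change 0.53, standard error 0.09, limma adjusted p = 0.00104). Creld2, an ER protein with disulfide isomerase activity that is induced by ER stress, had 1057, 1073 and 934 normalized counts in the Tbx18 libraries, against 708, 829 and 725 in the GFP libraries, a rise of 1.35-fold (log2 fold change 0.44, standard error 0.10, limma adjusted p = 0.00568). These 3 calls held under all 17 alternatives.

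Canx, calnexin, is the membrane-bound relative of calreticulin and binds the same sugar chains. It had 16818, 17790.3 and 17379.5 normalized counts in the Tbx18 libraries, against 22868, 24167 and 21091 in the GFP libraries. It fell 1.31-fold (log2 fold change -0.39, standard error 0.09, limma adjusted p = 0.00623), a call lost with equal recovered reads and with quantile normalization, where the log2 fold change was -0.04 (adjusted p up to 0.703). Within a library, Calr over Canx was 2.15, 1.98 and 2.14 in Tbx18, against 1.12, 1.01 and 1.18 in GFP. A factor per library cancels in such a ratio. The ratio of Pdia4 to Hspa5, a pair already called in opposite directions, was 0.288, 0.279 and 0.285 in Tbx18, against 0.160, 0.116 and 0.119 in GFP.

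Of the cochaperones of BiP, Dnajb9 fell and 2 others rose by small amounts. Dnajb9, a J-domain protein that hands misfolded chains to BiP and represses IRE1, had 851, 932 and 743 normalized counts in the Tbx18 libraries, against 983, 1367 and 1231 in the GFP libraries (log2 fold change -0.50, standard error 0.13, limma adjusted p = 0.0132); the call was lost without Tbx18 replicate 3 and with equal recovered reads (adjusted p up to 0.135). Dnajc3, a J-domain protein known as p58IPK, had 1638, 1666 and 1598 normalized counts in the Tbx18 libraries, against 1396, 1498 and 1311 in the GFP libraries. It passed the threshold narrowly (log2 fold change 0.22, standard error 0.08, limma adjusted p = 0.0489), and not with no filter, in DESeq2, with a replicate block, without any 1 of the Tbx18 libraries, without GFP replicate 1 or without GFP replicate 3 (adjusted p up to 0.153). Hyou1, a nucleotide exchange factor for BiP, had 5033, 4802 and 4928 normalized counts in the Tbx18 libraries, against 4175, 4289 and 4079 in the GFP libraries. Each Tbx18 value was above each GFP value (log2 fold change 0.24, standard error 0.07, limma adjusted p = 0.0244), and the call was lost without any 1 of the Tbx18 libraries and without GFP replicate 3 (adjusted p up to 0.119).

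The other 5 chaperone and folding genes were not called. Hsp90b1, the ER form of Hsp90 known as GRP94, averaged 27689 ± 1014 in Tbx18 and 27855 ± 2324 in GFP (SD, n = 3 each), with a log2 fold change of -0.01 and a 95% interval of -0.23 to 0.22; it was called higher with equal recovered reads and with quantile normalization (0.26 and 0.38). Pdia3, the isomerase that works with calreticulin and calnexin, had a log2 fold change of 0.17 (interval -0.04 to 0.37), and Pdia6 one of 0.20 (interval 0.01 to 0.39), with no overlap between groups for Pdia6. Both were called higher with upper-quartile scaling, equal recovered reads and quantile normalization. Sdf2l1, a cofactor of ER J-domain proteins, averaged 651 ± 46.2 in Tbx18 and 601 ± 23.4 in GFP (log2 fold change 0.11, standard error 0.10, limma adjusted p = 0.352), and was called higher with equal recovered reads (0.38). Manf, a secreted factor released on ER calcium loss, had 2033, 2100.4 and 1974 normalized counts in the Tbx18 libraries, against 2099.9, 3065 and 2354 in the GFP libraries, and GFP replicate 2 stood highest (log2 fold change -0.28, standard error 0.13, limma adjusted p = 0.0963); without GFP replicate 1 it was called lower, with a log2 fold change of -0.40.

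Neither measured gene of ER-associated degradation was called. Herpud1, a membrane scaffold of the degradation complex, averaged 2603 ± 104 in Tbx18 and 2630.3 ± 198 in GFP (SD, n = 3 each; log2 fold change -0.01, interval -0.20 to 0.18). Sel1l, the adaptor of the ubiquitin ligase HRD1, averaged 2156 ± 242 in Tbx18 and 1871 ± 235 in GFP (log2 fold change 0.21, interval -0.05 to 0.47). Both were called higher with equal recovered reads, with log2 fold changes of 0.25 and 0.47, and Sel1l also with quantile normalization (0.34).

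Of the sensors, Eif2ak3, which encodes PERK, had 572, 591 and 661 normalized counts in the Tbx18 libraries, against 501, 532 and 455 in the GFP libraries, the 1 sensor gene called (log2 fold change 0.29, standard error 0.11, limma adjusted p = 0.0447). That call was lost with no filter, with a replicate block, without any 1 of the Tbx18 libraries and without GFP replicate 3 (adjusted p up to 0.158). Ern1, which encodes IRE1, had 192, 185 and 212 normalized counts in the Tbx18 libraries, against 300.0, 203 and 307 in the GFP libraries. GFP replicate 2 lay with the Tbx18 libraries, and Ern1 was not called (log2 fold change -0.43, standard error 0.17, limma adjusted p = 0.0632) except in DESeq2, with a replicate block, with quantile normalization and without GFP replicate 2, lower in each case (adjusted p over the alternatives 0.00559 to 0.455). Atf6 averaged 1082 ± 79.9 in Tbx18 and 1209.5 ± 123 in GFP, with a log2 fold change of -0.16 and an interval of -0.39 to 0.07. Xbp1 averaged 2982 ± 364 in Tbx18 and 3199.8 ± 499.7 in GFP, with a log2 fold change of -0.10 and an interval of -0.39 to 0.19. Counts per gene do not separate spliced from unspliced Xbp1.

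Set side by side, the ATF4-type genes lay lower than the chaperone and folding genes by a difference of medians of -0.59 on the log2 scale. Scaling by 1 factor per library cannot change it, since such a factor shifts all genes alike. It was -0.60 with quantile normalization, and it ran from -0.54 to -0.63 when 1 library was left out. As the median deviation of each list from the gene means, ATF4-type minus chaperone and folding was -0.36, -0.23 and -0.28 in the Tbx18 libraries and 0.29, 0.31 and 0.22 in the GFP libraries, so the libraries of the 2 groups did not overlap. The lists were chosen with earlier results of these data known, so this is a description and no test is given. In 1 pair of genes, Asns over Hspa5 was 0.159, 0.162 and 0.158 in Tbx18, against 0.280, 0.254 and 0.233 in GFP.

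**Figure D4:**
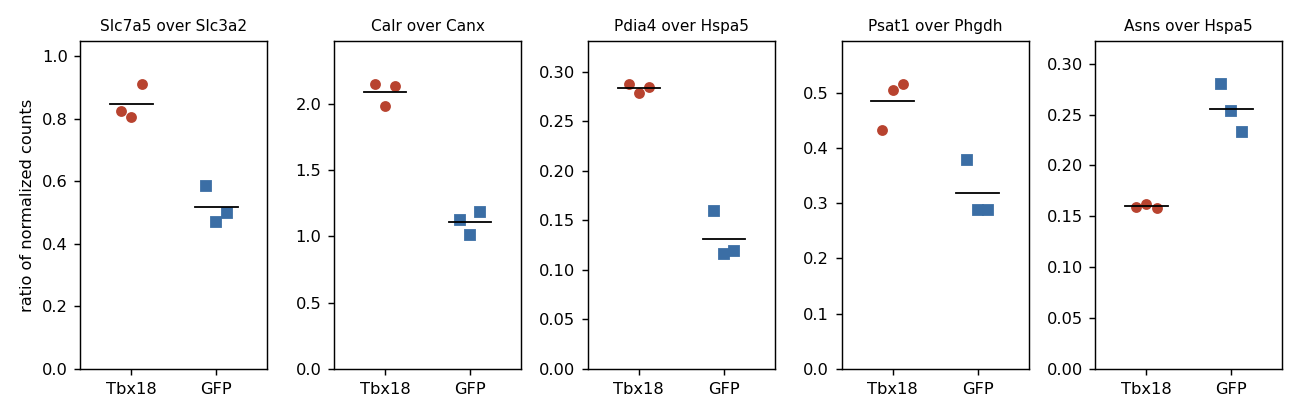
Ratio of the normalized counts of 2 genes within each library (y axis from 0; circles Tbx18, squares GFP, line the mean of 3). In all 5 pairs the groups do not overlap. Calr over Canx averages 2.09 in Tbx18 and 1.11 in GFP, and Asns over Hspa5 0.160 in Tbx18 and 0.256 in GFP. Slc7a5 and Slc3a2, Calr and Canx, and Pdia4 and Hspa5 were already called in opposite directions. The ratios are therefore a description without a test, and the share of other gene pairs without overlap was not measured.

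GFP replicate 2 held the highest of the 3 GFP values for 21 of the 33 genes, 63.6%, against 36.1% of all genes tested, and for 11 of the 13 chaperone and folding genes. Tbx18 replicate 2 held the highest Tbx18 value for 17 of 33, 51.5%, against 32.8% of all genes. Without GFP replicate 2 the median log2 fold change was -0.33 for the ATF4-type genes and 0.23 for the chaperone and folding genes. The replicates with the same number were not paired by any label.

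Genes of the same pathways that were not among the 35 were counted in the same fit. Of 27 other ATF4-type genes tested, 13 fell (48.1%) and 5 rose (18.5%), against 23.5% and 22.5% of all genes, with a median log2 fold change of -0.22. Atf3, a stress-induced transcription factor, had 316, 355 and 309 normalized counts in the Tbx18 libraries, against 658, 2355 and 4954 in the GFP libraries; all Tbx18 libraries were lower, and the GFP libraries differed widely among themselves, with replicate 1 nearest to the Tbx18 values (log2 fold change -2.60, standard error 0.56, limma adjusted p = 0.00409); leaving out GFP replicate 3 gave a log2 fold change of -1.93, and leaving out GFP replicate 1 one of -3.39. Stc2, stanniocalcin 2, fell 2.75-fold (log2 fold change -1.50, standard error 0.21, limma adjusted p = 0.000369) and Slc7a3, a cationic amino acid transporter, 2.79-fold (log2 fold change -1.48, standard error 0.10, limma adjusted p = 1.07e-05). Of 20 cytosolic tRNA synthetase genes, many of them known ATF4 targets, 12 fell (60%) and 1 rose (5%), with a median of -0.26. Mars, Wars and Gars, which charge methionine, tryptophan and glycine, fell 1.65-fold, 1.63-fold and 1.61-fold (log2 fold changes -0.72, -0.70 and -0.69). With equal recovered reads, where the median of all genes was 0.27, 8 of the other ATF4-type genes fell and 10 rose, and 4 synthetase genes fell and 5 rose. With upper-quartile scaling 7 synthetase genes fell and 2 rose, with quantile normalization 5 and 4, and without Tbx18 replicate 1 the counts were 7 and 0. Of all genes, 2060 fell and 1891 rose without Tbx18 replicate 1, against 2639 and 2525 with all libraries.

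Among 13 genes of the eIF2 kinases and eIF2 machinery, 2 rose and 4 fell, so 46.2% were called, close to the 46.0% of all genes. The 2 that rose were kinases: Eif2ak2, the interferon-induced kinase PKR that responds to double-stranded RNA, at 1523, 1994 and 1929 normalized counts in the Tbx18 libraries, against 1019, 1177 and 1129 in the GFP libraries (log2 fold change 0.70, standard error 0.12, limma adjusted p = 0.000914), and Eif2ak4, the amino acid sensor GCN2, at 563, 524 and 614 normalized counts in the Tbx18 libraries, against 439, 342 and 383 in the GFP libraries (log2 fold change 0.55, standard error 0.12, limma adjusted p = 0.00469). Eif2ak1, the heme-regulated kinase, averaged 832 ± 24.8 in Tbx18 and 806 ± 72.3 in GFP and was not called (log2 fold change 0.05, interval -0.16 to 0.26). Eif2s2, the beta subunit of eIF2, fell 1.55-fold (log2 fold change -0.63, standard error 0.10, limma adjusted p = 0.000774). With all libraries at equal recovered reads, 6 genes of this list rose and 1 fell. With upper-quartile scaling and with quantile normalization 4 rose and 3 fell. Without Tbx18 replicate 3 or without GFP replicate 3, 2 fell. Of all genes 2134 and 2382 fell in those 2 fits, against 2639 with all libraries.

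Of 25 other ER folding genes tested, 8 (32%) were higher and 2 (8%) lower, against 22.5% and 23.5% of all genes, with a median of 0.18. Fkbp7, a prolyl isomerase of the ER, rose 1.90-fold and Pdia5 1.65-fold (log2 fold changes 0.92 and 0.74), while Ero1l, the oxidase that reloads disulfide isomerases and is also induced by hypoxia, fell 2.68-fold (log2 fold change -1.45, standard error 0.15, limma adjusted p = 6.79e-05). Of 19 other degradation genes 4 rose (21.1%) and 6 fell (31.6%): the ubiquitin ligase genes Rnf139 and Rnf5 had log2 fold changes of -0.64 and -0.43, and Os9, a lectin of the degradation complex, one of 0.45. Of 10 other sensor and transducer genes 4 rose and 0 fell. These included Creb3l1, an ER-bound transcription factor known for driving collagen secretion in bone and fibroblasts, at 3019, 3087 and 3471 normalized counts in the Tbx18 libraries, against 1579, 1120.1 and 1313 in the GFP libraries (log2 fold change 1.27, standard error 0.12, limma adjusted p = 5.49e-05). Atf6b and Creb3, related membrane-bound factors, had log2 fold changes of 0.49 and 0.39. The other folding genes counted 12 higher and 1 lower with upper-quartile scaling and 14 and 3 with quantile normalization. Scaling to equal recovered reads, 17 of them rose and 1 fell, and 8 of the other degradation genes rose and 1 fell. Without any 1 of the Tbx18 libraries or without GFP replicate 3, 1 or 2 degradation genes rose. Of all genes, 1891 to 1960 rose without 1 Tbx18 library and 2316 without GFP replicate 3, against 2525 with all libraries. Without GFP replicate 1, 4 folding genes fell and 11 rose. Of all genes 2968 fell and 2900 rose in that fit, against 2639 and 2525 with all libraries.

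Mitochondrial chaperones and proteases, which belong to a separate mitochondrial stress response that also uses ATF4, were mostly lower. Of 11 tested, 9 fell (81.8%) and 0 rose, against 23.5% lower and 22.5% higher of all genes. The median was -0.53. Clpx, Afg3l2 and Hspa9, a protease subunit, an inner membrane protease and the mitochondrial Hsp70, fell 1.87-fold, 1.82-fold and 1.78-fold (log2 fold changes -0.89, -0.86 and -0.82). Under the 17 alternatives 6 to 9 of the 11 fell and 0 rose. The count of 6 was with equal recovered reads, where 1351 of all genes fell, against 2639 in the main fit.

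**Figure D5:**
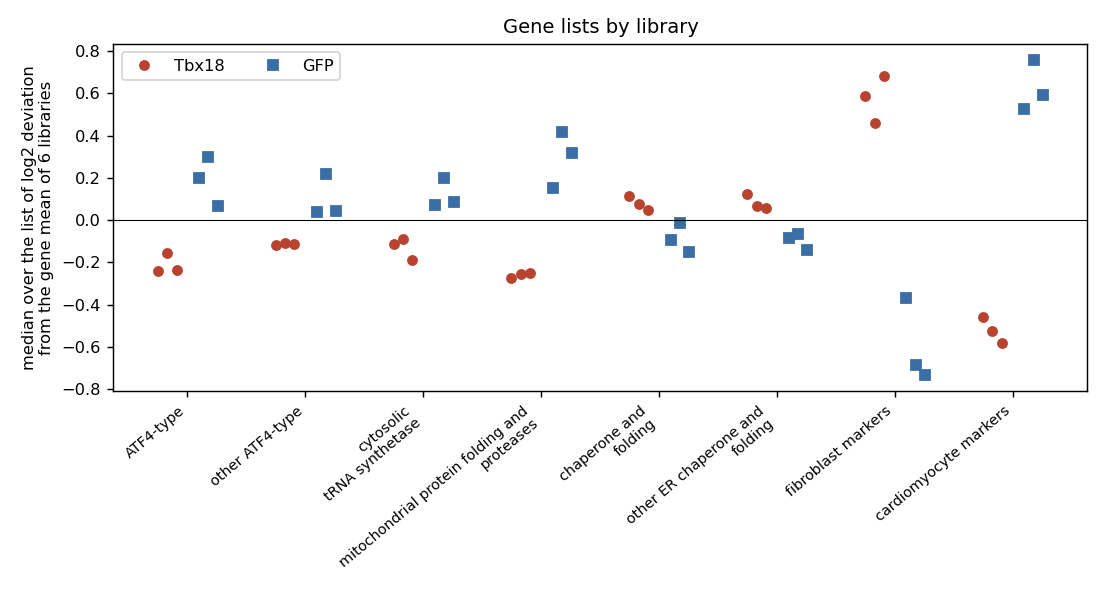
Median over each gene list of the log2 deviation from the gene's mean over 6 libraries (y axis, scaling as deposited), by library (circles Tbx18, squares GFP). ATF4-type lists, tRNA synthetases and mitochondrial chaperones sit lower in Tbx18, both ER chaperone lists higher, and marker lists of fibroblasts and cardiomyocytes part the groups most widely.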

How the data were processed

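All 6 libraries were stranded mRNA libraries, sequenced from both ends, per the labels' protocols. Tools named in the submitters' processing notes, with no role stated, are DESeq2 1.10.1, HTSeq, STAR 2.4.0g1 and bcl2fastq 2.17.1.14; the sources used here give no genome build, annotation or strand setting. The deposited values are DESeq2-normalized counts per gene, per the labels, a signal in which each library's read counts are divided by 1 factor. Every value was a whole multiple of its library's step (100% within 0.01), so reads were recovered, 17074483 to 19800300 per library, and the count tools below were run on them. Because counts of genes are not divided by length, levels are not compared between genes, and reads of overlapping or near-identical genes cannot be told apart.

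A gene was kept when its normalized counts averaged 10 or more (11230 of 17089; 2912 were at 0 in every library), and kept genes were tested with limma 3.58.1 (lmFit, then eBayes with trend) in R 4.3.3 on log2(normalized count + 1), Tbx18 against GFP with 3 libraries each, and p-values were adjusted over all genes by Benjamini-Hochberg, with a threshold of 0.05. A log2 fold change is therefore that of the value plus 1 and understates changes of low genes. Fold changes in plain numbers are ratios of group means. The procedure was tested on simulated data. The alternatives were upper-quartile and TMM scaling, equal recovered reads, quantile normalization, pseudocounts of 0.5 and 5, no filter, a minimum mean of 50, edgeR 4.0.16 quasi-likelihood, DESeq2 1.42.0, a replicate block and leaving out each library.

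Promoter sequences come from the RefSeq table of build GRCr8, matched by symbol, and are credited to RefSeq. A planned look at protein C termini was not made. The genes, the role groups, the other pathway lists and the marker lists were chosen with earlier results of these data known. The text gives every member; of the other pathway lists it names the 3 called genes with the largest absolute log2 fold change each, and Eif2ak1, Eif2ak2 and Eif2ak4 whatever their result.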

Additional observations from a re-analysis of the deposited data

How the results depend on the processing

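Of 18 called members, 8 kept the call under all 17 alternatives (Atf4, Asns, Phgdh, Shmt2, Mthfd2, Pdia4, Calr and Creld2), 8 lost it without 1 library and 2 (Slc3a2 and Canx) only under another scaling; 11 of 15 uncalled members were called under at least 1. With equal recovered reads 4793 of all genes were higher and 1351 lower in Tbx18, of the members 15 and 5, of the ATF4-type genes 3 and 5 (median -0.16), and of the chaperone and folding genes 9 and 0 (median 0.43). With quantile normalization 11 members were higher, of the chaperone and folding genes 8 were higher and 1 lower, and the medians were -0.22 for ATF4-type and 0.38 for chaperone and folding genes; with upper-quartile scaling the medians were -0.33 and 0.26. Equal recovered reads and upper-quartile scaling shift all genes by construction; the cause was not tested for quantile normalization. Leaving out 1 library gave 3 to 7 members higher and 7 to 12 lower. In the same fits 1891 to 2900 of all genes were higher and 2060 to 2968 lower. Of the ATF4-type genes 0 to 2 were higher, with a median of -0.46 to -0.33. Of the chaperone and folding genes 3 to 5 were higher and 1 to 4 lower, with a median of 0.12 to 0.23. The difference of the 2 medians was -0.59, which a factor per library cannot change, and ran from -0.63 to -0.54 when 1 library was left out.

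Signs turned for uncalled members whose log2 fold changes in the main fit lay between -0.20 (Trib3) and -0.01 (Hsp90b1). The sign also turned for Hspa5 (0.012 with quantile normalization). With equal recovered reads the log2 fold change was 0.059 for Trib3, 0.095 for Chac1, 0.19 for Slc7a11, 0.26 for Hsp90b1, 0.25 for Herpud1, 0.17 for Xbp1 and 0.11 for Atf6. With upper-quartile scaling it was 0.030 for Slc7a11, 0.094 for Hsp90b1, 0.087 for Herpud1 and 0.0022 for Xbp1, and with quantile normalization 0.38 for Hsp90b1, 0.15 for Herpud1 and 0.096 for Xbp1. In edgeR it was 0.0078 for Hsp90b1 and 0.0015 for Herpud1. Without 1 library it ran from -0.16 to 0.035 for Slc7a11, from -0.077 to 0.033 for Hsp90b1, from -0.067 to 0.042 for Herpud1 and from -0.21 to 0.016 for Xbp1. Equal recovered reads and upper-quartile scaling shift all genes by construction, and the cause was not tested for the other alternatives.

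edgeR called 5206 of all genes and the same 18 members; DESeq2 called 5096 and 18, with Ern1 in place of Dnajc3. Deviations of libraries with the same replicate number correlated at -0.00474, 0.151 and 0.0165. The value of 0.151, for replicate 2, was the highest of any Tbx18 library with any GFP library. Tbx18 replicate 3 correlated best with GFP replicate 1, at 0.113. Deviations from a mean of 3 libraries depend on each other, so these values cannot decide whether the numbers pair the libraries. A replicate block gave 2527 higher and 2628 lower of all genes, and 5 and 12 of the members. With 3 libraries a group, the intervals of single genes are wide beside the smaller changes. For Slc7a5 the 95% interval was 0.06 to 0.52 around a log2 fold change of 0.29. For Mthfd2, the member with the largest change, it was -1.31 to -0.94 around -1.13.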
